A study of Homo sapiens with 4 samples.

Results

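Genes of cholesterol and fatty acid synthesis were followed in cultured SH-SY5Y neuroblastoma cells of human origin after small interfering RNA (siRNA) against LSD1. The list held 31 genes, chosen by pathway: the enzymes that build cholesterol from acetyl-CoA, the proteins that regulate that pathway, and the enzymes that make and modify fatty acids. A member was measured where at least 1 probe set of the array named that gene alone, and its brightest probe set over the 4 arrays stood for it. That left 28 of the 31 members, among 19775 genes measured in this way. FADS1 and CYP51A1 had probe sets only in common with another gene, and FDFT1 is not analysed here. MVD, which makes isopentenyl diphosphate, was too dim to be tested, so that 27 members entered the fit of 11865 genes.

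The study compared 2 arrays of cells transfected with a control siRNA (siControl) with 2 arrays of cells transfected with siRNA against LSD1 (siLSD1), all of the same parental line with no other agent named. LSD1, encoded by KDM1A, is an enzyme that removes methyl groups from histone lysines. The submitters describe the transfections of a group as independent experiments, and p-values here reflect transfection-to-transfection spread within 1 cell line. Neither the siRNA sequences nor the time between transfection and harvest is given in the sources used here. All levels below are log2 signals after quantile normalization, a difference is siLSD1 minus siControl on that log2 scale, and a fold is its antilog. In these bulk samples, fewer cells that express a gene and less RNA per cell cannot be told apart.

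Cholesterol is built in the endoplasmic reticulum. Acetyl-CoA is joined and reduced to mevalonate, mevalonate is turned into the isoprenoid farnesyl diphosphate, and farnesyl diphosphate is condensed to squalene, closed to lanosterol and trimmed to cholesterol. When membrane sterol is low, the escort protein SCAP carries the transcription factors SREBP1 and SREBP2 (genes SREBF1 and SREBF2) to the Golgi, where they are cut and released to switch on these enzymes; INSIG1 and INSIG2 hold SCAP back when sterol is plentiful. SREBP1 also drives fatty acid synthesis, and growing nerve cells use the products of both pathways for new membrane.

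The knockdown was visible in KDM1A. It read 9.79 and 9.78 in control cells and 8.40 and 8.54 in siLSD1 cells, or 40.04% of control. The difference of -1.32 (95% interval from -1.69 to -0.95) had an adjusted p of 0.39 over all genes in limma, which did not pass 0.05. Noradrenergic neuroblastoma markers were present as labelled: 8 of the 9 measured, among them PHOX2A, GATA3 and DBH, were above the filter, and TH was below it. Of the markers of other cell types, 6 of 6 of fibroblasts were above the filter, against 1 of 4 of blood cells (HBB), 1 of 5 of hepatocytes (CYP3A4) and 1 of 4 of adipocytes (CIDEC). The summed fibroblast signal was 10.6 and 10.1 in control and 10.5 and 10.8 in siLSD1 cells. The arrays were not equally alike. Over all tested genes, siControl replicate 1 correlated with the other arrays at 0.956 to 0.960, whereas the other 3 arrays correlated with each other at up to 0.980. On siLSD1 replicate 2 the ribosomal RNA control signal was 10.9, against 6.04 to 6.58 on the others, and the 3′ probe set of beta-actin exceeded the 5′ one by 1.16, against 0.54 to 0.71. The part of these array differences in the results below was not tested. Values without siControl replicate 1 and without siLSD1 replicate 2 are given for the number of members with separate groups. For other results such values are given only in part.

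No member passed the test. At an adjusted p under 0.05 in limma 0 of the 27 members were called, beside 0% of all genes tested, and at an unadjusted p under 0.05 also 0 of 27, beside 3.45% of all genes. The largest differences were 1.33-fold lower (EBP) and 1.22-fold higher (ACACA), every member had an adjusted p of 0.9996 in limma, no member reached a 1.5-fold difference, and all 27 of the 95% intervals included 0. The median half-width of those intervals, which are not adjusted for the number of genes, was 0.48. For a typical member a smaller difference left 0 inside its interval. The adjusted test asked for more, since KDM1A at -1.32 did not pass it, so larger differences could also go uncalled with 2 arrays a group. Member means were lower in siLSD1 cells for 17 genes and higher for 10, where 48.7% of all genes were lower, and the median difference was -0.088 beside 0.0068 over all genes. Of all genes, 80% lay between -0.31 and 0.41. Below that range were 3 members (EBP, SQLE and MSMO1), above it were 0, and 24 lay inside.

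For 8 of the 27 members, or 29.6%, the siLSD1 arrays were both lower than the control arrays, and the same held for 15.1% of all genes. They were ACAT2 and PMVK of the mevalonate arm, SQLE, LSS, MSMO1, EBP and SC5D of the sterol arm, and ACLY. Both siLSD1 arrays lay above both siControl arrays for 1 member (NSDHL), where this held for 16.6% of all genes. Without siControl replicate 1, both siLSD1 arrays were below the remaining control for 13 members (27.0% of all genes), and without siLSD1 replicate 2 the remaining siLSD1 array was below both controls for 12 (31.3% of all genes). The counts depended on the scaling. Median centring of the deposited values moved the median difference of all genes by 0.17 upward, and with it 1 member lay apart below and 5 above, beside 4.72% and 36.7% of all genes. Relative to the median of all genes, the members' median was -0.095 in the quantile-normalized data and -0.081 after median centring.

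**Figure D1:**
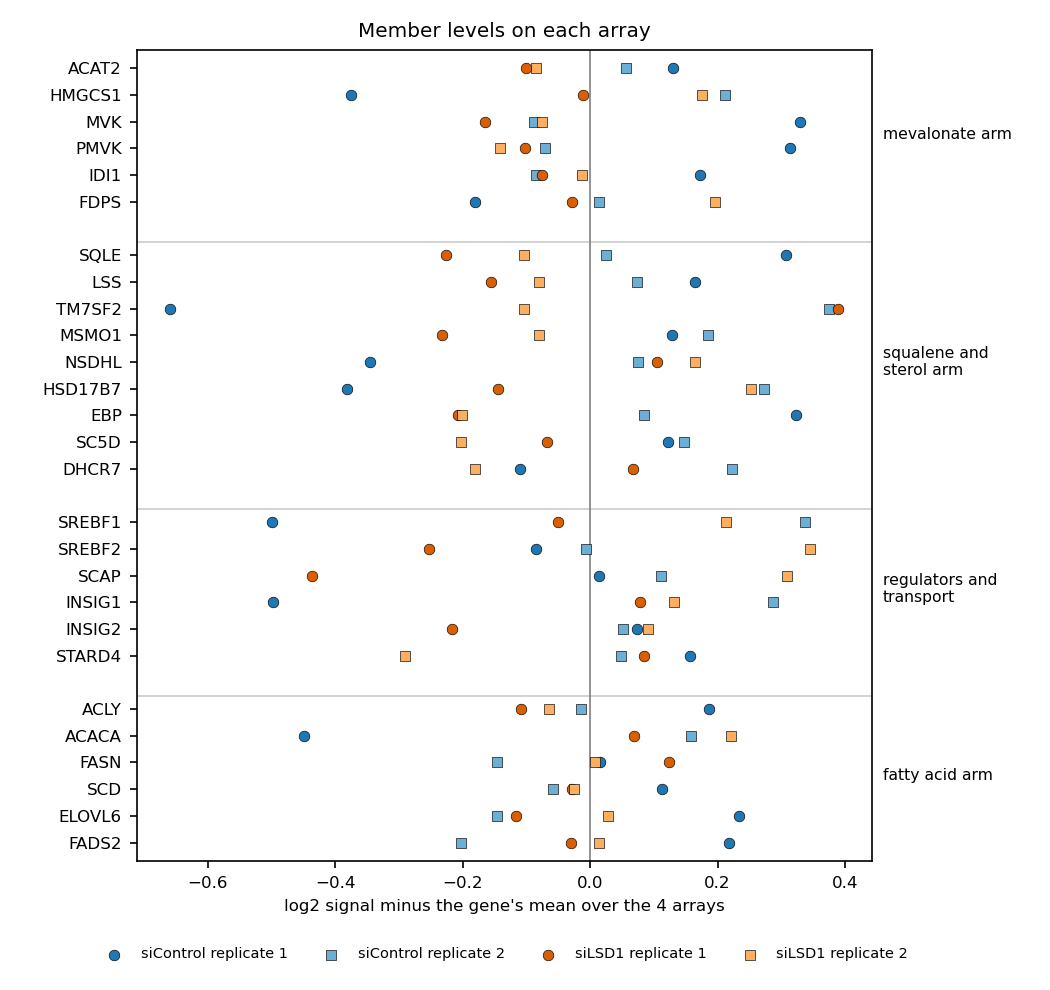
Level of each of the 27 tested members on the 4 arrays, as log2 signal minus that gene's own mean, grouped by role, with siControl in blue and siLSD1 in orange. In the squalene and sterol arm the orange points of SQLE, LSS, MSMO1, EBP and SC5D lie to the left of the blue points, and siControl replicate 1 is far to the left for TM7SF2, INSIG1, SREBF1 and ACACA.

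By brightest probe sets, the mevalonate arm showed small differences in both directions. Of its 6 tested genes, 4 had lower and 2 higher means in siLSD1 cells, with a median of -0.14 that was -0.042 without siControl replicate 1. ACAT2, the cytosolic thiolase that joins acetyl-CoA units, had the smallest p of the arm. It read 9.54 and 9.46 in control and 9.31 and 9.32 in siLSD1 cells. The groups did not overlap, and the difference of -0.19 (95% interval from -0.52 to 0.15) was larger than the gap between arrays of either group. PMVK, the kinase that adds the second phosphate to mevalonate, was 8.74 and 8.35 in control and 8.32 and 8.28 after LSD1 siRNA. Its groups were apart by a narrow margin, since the lower control array was close to both siLSD1 arrays, and its difference of -0.24 became -0.051 without siControl replicate 1. MVK, the first mevalonate kinase, repeated this pattern with overlapping groups, at a difference of -0.24 with all arrays and -0.032 without siControl replicate 1. IDI1, which isomerizes isopentenyl diphosphate, differed by -0.088, and FDPS, the farnesyl diphosphate synthase, by 0.17, both with overlapping groups. HMGCS1, the synthase that commits acetyl units to this pathway and a standard SREBP2 target, was 6.79 and 7.37 in control and 7.15 and 7.34 in siLSD1 cells. The siControl arrays enclosed both siLSD1 arrays, and the sign of its difference of 0.16 turned to -0.13 without siControl replicate 1. A dimmer HMGCS1 probe set, also above the filter, differed by -1.12 with separate groups. MVD was listed at 0.74, 3.81, 2.49 and 2.50, all under the filter level of 4.12, and has no interpretable difference.

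The squalene and sterol arm held most of the members with separate groups. Of its 9 tested genes 6 had lower and 3 higher means, with a median of -0.24, and 5 of the 9 had both siLSD1 arrays below both controls, beside 15.1% of all genes. The median was -0.052 with the mean of all probe sets of a gene, beside -0.0052 over all genes. Under median centring the arm's median was -0.027, beside 0.18 over all genes. EBP, the isomerase that shifts a bond in the sterol ring, had the smallest p of all members. EBP read 8.43 and 8.19 in control and 7.90 and 7.91 in siLSD1 cells, so that the siLSD1 arrays agreed closely and both lay below both controls. EBP was 1.33-fold lower, with a difference of -0.41 (95% interval from -0.88 to 0.068), and the difference was -0.29 without siControl replicate 1. SQLE, the squalene epoxidase that catalyses the first oxygen-dependent step, was 9.54 and 9.25 in control and 9.003 and 9.125 in siLSD1 cells. Its groups did not overlap, and it was 1.26-fold lower (difference -0.33, 95% interval from -0.72 to 0.063). Leaving out siControl replicate 1 reduced the SQLE difference to -0.19. MSMO1, the methyl sterol oxidase that acts on the lanosterol-derived intermediates, was 9.19 and 9.25 in control and 8.83 and 8.98 in siLSD1 cells. Here the controls agreed closely and the gap to the siLSD1 arrays was wider than the spread within either group, at 1.24-fold lower (difference -0.31, 95% interval from -0.69 to 0.068). The MSMO1 difference stayed between -0.39 and -0.24 when any 1 array was left out.

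LSS, the cyclase that folds squalene epoxide into lanosterol, and SC5D, a sterol desaturase of the last steps, had smaller differences with separate groups. LSS averaged 8.30 ± 0.065 in control and 8.06 ± 0.053 in siLSD1 cells (SD, n = 2), and SC5D 8.74 ± 0.018 and 8.47 ± 0.096 (SD, n = 2). Their differences were -0.24 and -0.27, and both were larger than the gap between arrays of either group. Among all 27 tested members this was so for 6, namely these 2 with ACAT2, SQLE, MSMO1 and EBP. For the other 21 the arrays of 1 group differed by more than the groups did. NSDHL, the dehydrogenase that works with MSMO1 to remove the methyl groups, went the other way by its brightest probe set, with 6.28 and 6.70 in control and 6.73 and 6.79 in siLSD1 cells. The difference of 0.27 rested on siControl replicate 1 and was 0.060 without it. TM7SF2, a sterol reductase, was 5.40 and 6.44 in control against 6.45 and 5.96, and its difference of 0.29 turned to -0.23 without siControl replicate 1. HSD17B7, a ketosteroid reductase of this pathway, differed by 0.11 and DHCR7, the reductase of the final step, by -0.11, with overlapping groups and with signs that turned when 1 array was left out.

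**Figure D2:**
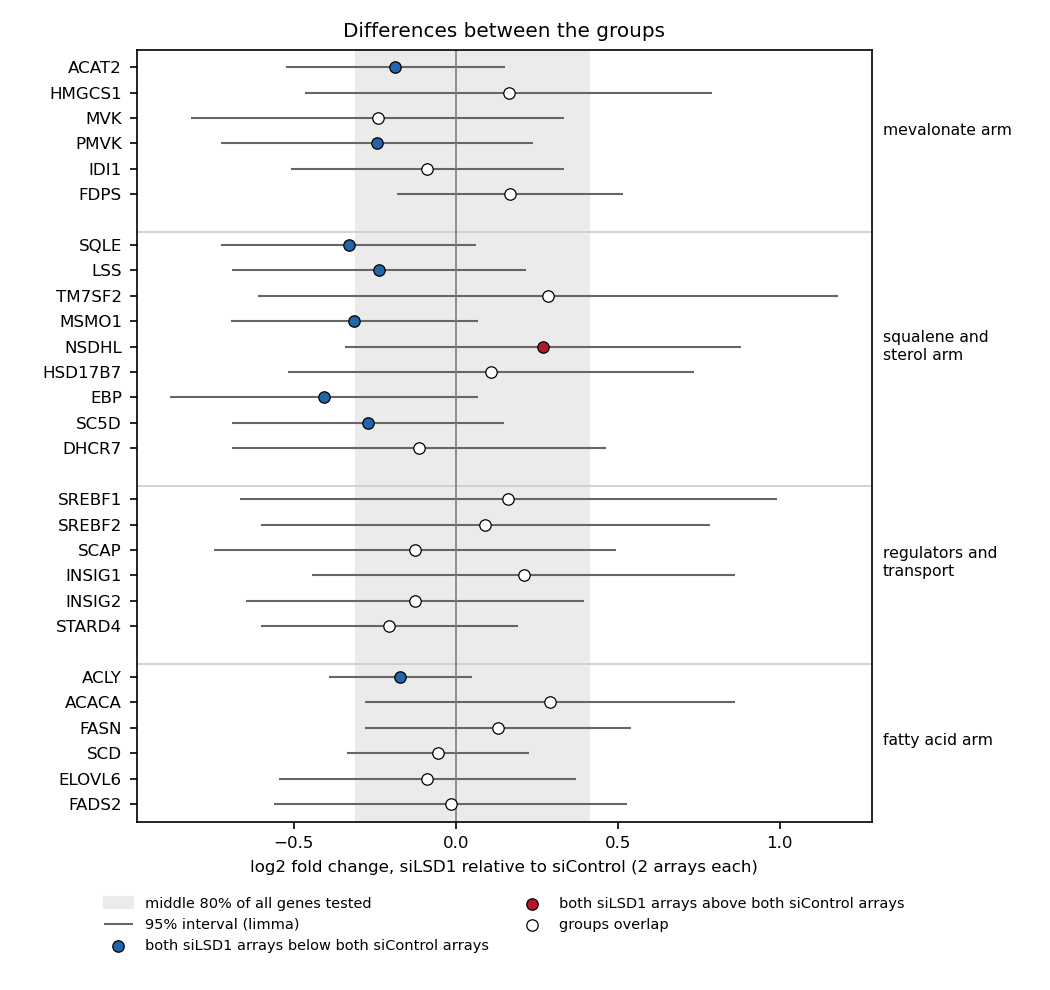
Difference between siLSD1 and siControl for each tested member on the log2 scale, with its 95% interval from limma (2 arrays a group). Filled points mark members whose groups do not overlap, 8 of them lower and 1 higher, the grey band holds the middle 80% of all genes tested (-0.31 to 0.41), and every interval crosses 0.

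The promoters of EBP, MSMO1 and LSS, members of this arm that lay lower with separate groups and have 1 listed window, are shown with that of SREBF2 for comparison. Sequences are from RefSeq (GRCh38.p14), which held 37 promoter windows for 27 of the 31 members, and each stretch was taken from the 250 bases before the transcription start, 5′ to 3′ on the gene's strand. Capitals mark CCAAT, the letters bound by NF-Y (ATTGG on the other strand), GGGCGG, the GC box bound by SP1 (CCGCCC on the other strand), and TCACNCCAC, a form of the sterol regulatory element bound by SREBPs.
EBP, chrX:48521602-48521797, plus strand: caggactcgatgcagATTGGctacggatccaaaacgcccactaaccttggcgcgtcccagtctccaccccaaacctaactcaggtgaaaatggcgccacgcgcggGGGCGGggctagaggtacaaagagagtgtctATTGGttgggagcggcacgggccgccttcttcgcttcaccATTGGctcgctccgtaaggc
MSMO1, chr4:165327419-165327654, plus strand: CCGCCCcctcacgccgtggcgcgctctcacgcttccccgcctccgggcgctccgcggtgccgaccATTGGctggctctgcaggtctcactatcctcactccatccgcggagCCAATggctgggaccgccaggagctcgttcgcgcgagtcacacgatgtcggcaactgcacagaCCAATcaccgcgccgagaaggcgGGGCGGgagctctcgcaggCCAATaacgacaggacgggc
LSS, chr21:46228792-46229021, minus strand: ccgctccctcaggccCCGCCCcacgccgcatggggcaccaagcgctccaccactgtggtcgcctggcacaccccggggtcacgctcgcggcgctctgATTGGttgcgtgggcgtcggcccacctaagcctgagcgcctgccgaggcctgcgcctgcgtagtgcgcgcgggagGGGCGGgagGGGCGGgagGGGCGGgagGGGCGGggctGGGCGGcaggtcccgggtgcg
SREBF2, chr22:41832957-41833104, plus strand: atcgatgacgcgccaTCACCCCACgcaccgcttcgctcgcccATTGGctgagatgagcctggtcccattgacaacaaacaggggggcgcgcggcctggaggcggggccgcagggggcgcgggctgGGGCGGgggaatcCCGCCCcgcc
On both strands of the 250 bases, EBP had 3 CCAAT and 1 GC box, MSMO1 4 and 2, and LSS 1 and 6. In all, 62.2% of the members' windows held CCAAT, beside 32.0% of 35116 RefSeq windows of that length, and 89.2% held GGGCGG, beside 42.6%. CACGTG, an E-box that SREBPs can also bind, was in 10.8% of the members' windows and 6.34% of all. TCACNCCAC occurred in 1 member window, that of SREBF2, and in 0.883% of all windows. Its absence from the others says only that these letters are not in those windows. CCAAT was also in windows of members whose groups overlapped, HMGCS1 and MVK among them, and of NSDHL.

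The direction of the pathway's regulators depended on single arrays and probe sets. Of the 6 genes, 3 had higher and 3 lower means, with a median of -0.017, and 0 had separate groups. Lower means numbered 5 of 6 without siControl replicate 1 (median -0.16) and with the mean of all probe sets (-0.11), and 1 of 6 without siLSD1 replicate 1 (0.24) and under median centring (0.19). SREBF1 was 5.18 and 6.01 in control and 5.62 and 5.89 in siLSD1 cells. SREBF2 was 6.11 and 6.19 in control and 5.94 and 6.54 in siLSD1 cells. For SREBF1 the control arrays enclosed the siLSD1 arrays and for SREBF2 the reverse held, and the differences of 0.16 (95% interval from -0.67 to 0.99) and 0.091 (from -0.60 to 0.78) were within the spread of the arrays. INSIG1, itself a sensitive SREBP target, was 7.30 and 8.08 in control and 7.87 and 7.93 in siLSD1 cells, a difference of 0.21 that turned to -0.18 without siControl replicate 1. INSIG2, which is less dependent on SREBPs, was 7.70 and 7.68 in control and 7.41 and 7.71 in siLSD1 cells, and only siLSD1 replicate 1 stood below the others. SCAP differed by -0.13 with the siLSD1 arrays at 7.73 and 8.47, farther apart than those of any other tested member. STARD4, a carrier that moves sterol between membranes, had the smallest p of the regulators (difference -0.20, 95% interval from -0.60 to 0.19). Its levels were 9.62 and 9.51 in control and 9.55 and 9.17 in siLSD1 cells. Only siLSD1 replicate 2 was low, and the difference was -0.017 without that array.

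Fatty acid synthesis enzymes differed in both directions. Of 6 tested genes 4 had lower and 2 higher means, with a median of -0.035 that was 0.067 without siControl replicate 1, and 1 had separate groups. That gene was ACLY, the lyase that makes the cytosolic acetyl-CoA used by both pathways. ACLY was 11.26 and 11.06 in control and 10.96 and 11.01 in siLSD1 cells. The groups were apart, but the siControl arrays differed from each other by more than the groups did (difference -0.17, 95% interval from -0.39 to 0.049). ACACA, the carboxylase that commits acetyl-CoA to fatty acids, was 7.75 and 8.36 in control and 8.27 and 8.42 in siLSD1 cells. Only siControl replicate 1 was low, and the difference of 0.29 was -0.014 without it. FASN, the fatty acid synthase, averaged 8.74 ± 0.11 and 8.87 ± 0.082 (SD, n = 2), and SCD, the desaturase that makes oleate, 10.19 ± 0.12 and 10.14 ± 0.0016 (SD, n = 2). FADS2, the desaturase of polyunsaturated fatty acids, was 7.88 and 7.46 in control and 7.63 and 7.68 in siLSD1 cells, with the siLSD1 arrays inside the control range. Its neighbour and paralogue FADS1 could not be set beside it. ELOVL6, which lengthens palmitate, differed by -0.087 with overlapping groups on its brightest probe set. The other ELOVL6 probe sets, all above the filter, conflicted: one was at -0.44 and one at 0.33, each with separate groups.

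Probe sets of the same gene often disagreed. Of the tested members, 15 had other probe sets above the filter, 27 in all, of which 15 had the sign of the brightest one and 12 the opposite. Of these 27, 9 had separate groups with lower and 2 with higher siLSD1 arrays, beside 17.4% and 15.1% of the 10424 such probe sets of all genes tested. For LSS, SC5D, MVK and ACLY every other probe set above the filter had a lower siLSD1 mean too, though some of these rested on 1 array. One of MVK turned to 0.21 without siLSD1 replicate 1, one of ACLY to 0.032 without siLSD1 replicate 2, and that of SC5D went from -1.44 to -0.47 without the latter array. The second probe set of LSS was 4.71 and 4.94 in control and 4.34 and 4.03 in siLSD1 cells. These levels are close to the filter level of 4.12, and another LSS probe set, below the filter, differed by 0.27. EBP was split: one further probe set differed by -0.34 with overlapping groups. The dimmest EBP probe set above the filter differed by 0.55 and was low on siControl replicate 1 alone. For SQLE the others differed by -0.042, -0.20 and 0.22, and MSMO1 had a single probe set. HMGCS1 had the widest contrast among the sterol enzymes, since its dimmer probe set was 5.93 and 6.13 in control and 5.11 and 4.72 in siLSD1 cells, a difference of -1.12 with separate groups, against 0.16 for the brighter one. The difference of the dimmer one stayed between -1.32 and -0.93 when any 1 array was left out. NSDHL, the single member with higher separate groups, was lower by its other probe set (-0.19, separate groups). SREBF2 had one at -0.47, with 6.05 and 5.79 in control and 5.45 and 5.44 in siLSD1 cells, against 0.091 for the brightest. INSIG1 had one at -0.30 with separate groups, against 0.21 for the brightest, and it was -0.092 without siLSD1 replicate 2. Some dimmer probe sets were low on siLSD1 replicate 2 alone, the array with the strong ribosomal RNA signal. The clearest was SCD, where one probe set read 6.02, 6.74 and 6.49 on the other arrays and 2.28 on that array, while the brightest probe set read 10.14 on both siLSD1 arrays.

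**Figure D3:**
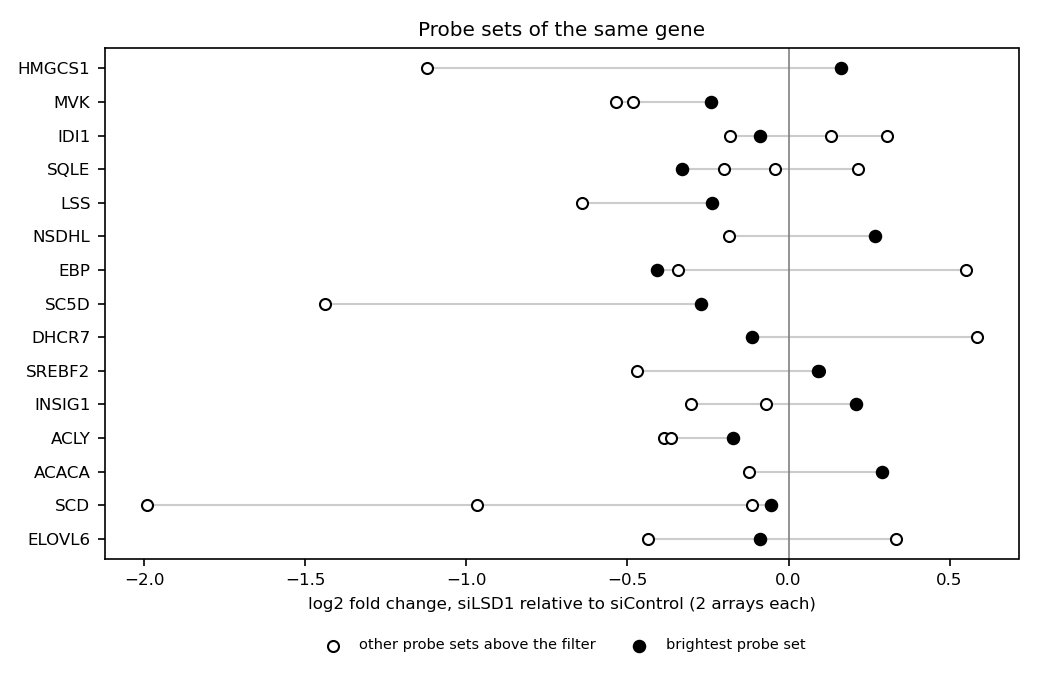
Difference between siLSD1 and siControl (log2, 2 arrays each) for every probe set above the filter of the 15 members that had more than 1. Filled points are the brightest probe sets and open points the others, which range from -1.99 (SCD) to 0.58 (DHCR7), 15 of 27 with the sign of the brightest; the open point of SREBF2 at 0.096 lies under the filled one.

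Genes around these pathways were described from lists chosen by function. Each gene was represented by its brightest probe set, and its other probe sets were not examined singly. In each of the 5 lists 0 genes passed the test at an adjusted p under 0.05 in limma, beside 0% of all genes tested. At an unadjusted p under 0.05 in limma were PGGT1B, ERLIN1 and SLC25A1, 1 each in lists of 11, 12 and 18 tested genes. This held for 3.45% of all genes. Separate groups, named for some genes below, were found with lower siLSD1 arrays for 15.1% of all genes and with higher ones for 16.6%. In the branches that use farnesyl diphosphate for other products, 5 of 11 tested genes had higher and 6 lower means, with a median of -0.077. PGGT1B, a subunit of a protein geranylgeranyl transferase, was 8.18 and 8.10 in control and 7.56 and 7.64 in siLSD1 cells, 1.45-fold lower with separate groups. DHDDS, of dolichol synthesis, differed by 0.76, but by 0.16 without siControl replicate 1. RABGGTB (0.29) and GGPS1 (-0.16) had overlapping groups, and without siControl replicate 1 they were at -0.075 and -0.058. Among 12 genes of SREBP processing, turnover and cofactors, 8 had higher and 4 lower means, with a median of 0.043. ERLIN1, a membrane protein that limits SREBP activation, had a difference of 0.87 that was 0.26 without siControl replicate 1, while RNF145 (0.16), NFYA (0.22) and NFYB (-0.14) differed less. NFYA had overlapping groups and a difference of 0.0074 without siControl replicate 1.

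Sterol trafficking and esterification did not move as a block either, with 8 higher and 7 lower means of 15 and a median of 0.012. SOAT1, which esterifies cholesterol for storage, was 7.46 and 7.51 in control and 7.917 and 8.005 in siLSD1 cells. The SOAT1 groups were well apart relative to their spread, at 1.39-fold higher, and the difference was 0.46 without siControl replicate 1. GRAMD1B, a sterol carrier at membrane contacts, differed by 0.55, also with separate groups, while the lipoprotein receptor VLDLR (-0.35) and the lysosomal lipase LIPA (-0.29) lay below control. VLDLR was at -0.18 without siControl replicate 1. The LIPA groups were apart by a narrow margin, and its difference was -0.11 without siControl replicate 2. Of 18 further tested genes of fatty acid synthesis and elongation, 8 had higher and 10 lower means (median -0.038), and without siControl replicate 1 the counts were 13 and 5 (median 0.10). SLC25A1, the mitochondrial carrier that exports the citrate ACLY cleaves, was 7.90 on both siControl arrays and read 7.44 and 7.23 in siLSD1 cells, 1.48-fold lower with separate groups. TECR, the reductase of fatty acid elongation, was 1.36-fold lower with separate groups, HSD17B12, which acts in the same cycle, differed by -0.19, also with separate groups. FADS3 differed by -0.43 with overlapping groups, and by -0.078 without siControl replicate 1. ELOVL3, an elongase, was listed at -1.51 and -0.20 in control and 2.68 and 2.25 in siLSD1 cells, all below the filter level, and was not tested. Of 20 tested genes of fatty acid oxidation, 17 had lower and 3 higher means, where 48.7% of all genes were lower, and the median was -0.078. ETFDH (0.52), ETFB (-0.33), ACADM (-0.17) and SLC25A20 (-0.23) had the smallest p. Without siControl replicate 1, 11 genes of the oxidation list had lower and 9 higher means (median -0.0063). Under median centring 5 were lower and 15 higher, with a median of 0.084 beside 0.18 over all genes.

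**Figure D4:**
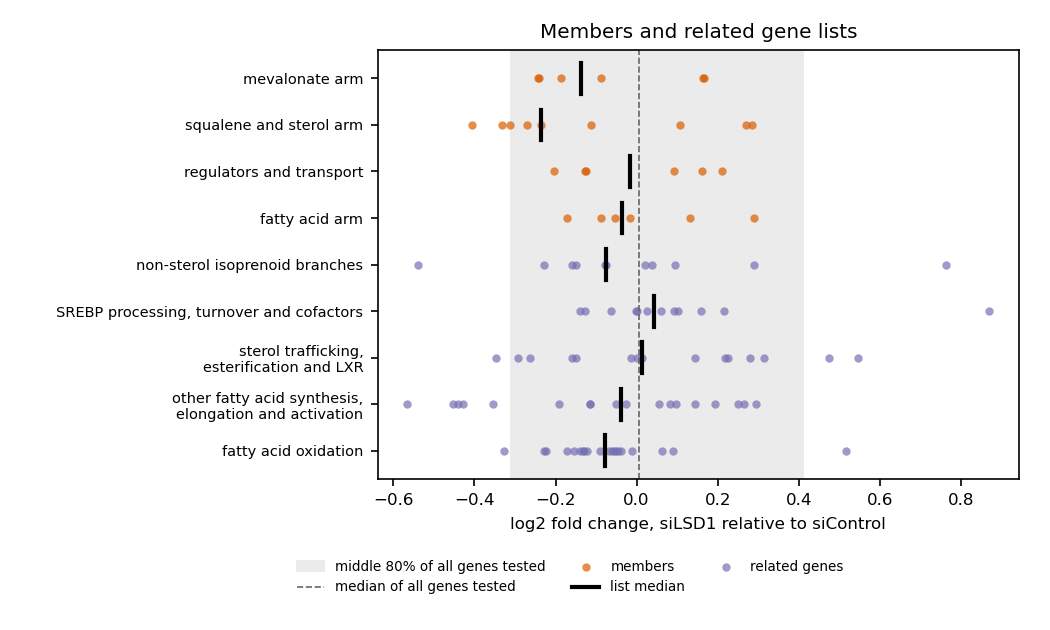
Difference between siLSD1 and siControl (log2) for each tested gene of the 4 member groups (orange) and the 5 related lists (purple), with list medians as black bars, the middle 80% of all genes as a grey band and their median (0.0068) as a dashed line. By brightest probe sets the squalene and sterol arm has the lowest median of the 9 groups (-0.24; with the mean of all probe sets it is -0.052, above the mevalonate arm at -0.15), and the largest single differences are those of ERLIN1 and DHDDS.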

How the data were processed

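Total RNA of 4 SH-SY5Y cultures was extracted with a column kit, then biotin-labelled, and hybridized to Affymetrix arrays, per the labels' protocols. The deposited values are log2 signals, 1 per probe set and array. That scale was found from the values: taken as powers of 2, they averaged 100.0 on every array after the lowest and highest 2% were left out. How the authors summarised the probes, and with which software, was not stated in the labels or files. Of 54675 probe sets, 41097 had 1 gene symbol in the platform annotation of the array, and those with several were not used. All 28 measured members had the RefSeq symbol of their Entrez identifier.

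Array medians of the deposited values ranged over 0.27, and the arrays were quantile normalized, which would remove an overall difference in signal between the groups. Genes below the 40th percentile of mean signal (4.12) were left out, and the remaining 11865 genes were fitted together in R 4.3.3 with limma 3.58.1 (lmFit, eBayes with a trend, two-sided, Benjamini-Hochberg over all genes tested, threshold 0.05, no replicate term). The moderated test had 8.23 degrees of freedom. With 2 arrays in each group, the smallest p of an exact permutation test is 0.33, and their number limits the precision. Simulated data were used to test the fit.

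Values on every array are given for KDM1A, for members with separate groups and a difference of at least 0.3, for the smallest p of each role group and for the paralogue pairs SREBF1 and SREBF2, INSIG1 and INSIG2, FADS1 and FADS2. In each related list the 4 genes with the smallest p are named. Array values of other members (HMGCS1, PMVK, MVD, NSDHL, TM7SF2, ACACA, SCAP) and of single probe sets were added after they were seen. The same holds for array values of the related genes PGGT1B, SOAT1, SLC25A1 and ELOVL3. The members and lists were chosen with earlier results of these data known. Alternatives were the deposited scaling, median centring, other filters, the mean of all probe sets, a replicate block, no trend and leaving out each array. The mean of all probe sets also took in those below the filter level.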

Additional observations from a re-analysis of the deposited data

How the results depend on the processing

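The 0 calls among members held in every alternative run. Over all genes, 13 were called with the replicate block, where KDM1A passed (-1.32), and 0 to 83 when 1 array was left out (83 without siControl replicate 2, where KDM1A passed too; KDM1A -1.39 to -1.25). The labels do not say that a number marks a shared batch, and same-numbered arrays deviated together with a correlation of only 0.052, so the block is not read further; it changed no call of a member. Members with separate groups numbered 10 to 14 lower and 3 to 8 higher with 1 array fewer, where separation is easier: over all genes 25.8% to 43.6% were then lower and 25.5% to 41.4% higher, and the 14 and 8 (without siControl replicate 2) stand beside 43.6% and 33.2%. Under median centring they were 1 and 5, beside 4.72% and 36.7% of all genes. With the mean of all probe sets 2 were higher, beside 16.3% of all genes. Without siControl replicate 2, 6 members had an unadjusted p under 0.05 in limma, beside 14.8% of all genes; the lone control is then assumed to vary like the siLSD1 arrays.

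Medians under median centring, which moves the median of all genes by 0.17, were 0.099 for the members, 0.042, -0.027, 0.19 and 0.15 for the mevalonate, sterol, regulator and fatty acid groups, and 0.16, 0.24, 0.19 and 0.084 for isoprenoid branches, SREBP processing, sterol trafficking and fatty acid oxidation. Leaving out 1 array gave -0.14 to -0.015 for the members, -0.22 to -0.042, -0.26 to -0.20, -0.16 to 0.24 and -0.18 to 0.067 for the 4 groups in that order, and -0.077 to 0.085, -0.11 to 0.21, -0.048 to 0.14 and -0.23 to -0.0063 for the 4 lists. The other fatty acid synthesis genes had a median of 0.094 under median centring and -0.20 to 0.10 with 1 array left out. The sterol arm was -0.20 with the deposited scaling and -0.052 with the mean of all probe sets, the isoprenoid list -0.014 and -0.0050, and sterol trafficking 0.14 without a filter.

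The sign held in all alternatives for 13 of the 27 tested members (ACAT2, MVK, PMVK, FDPS, SQLE, LSS, MSMO1, NSDHL, EBP, SC5D, STARD4, ACLY and FASN). With 1 array left out, 14 turned: HMGCS1 (-0.13 to 0.46), IDI1 (-0.22 to 0.040), TM7SF2 (-0.23 to 0.80), HSD17B7 (-0.22 to 0.43), DHCR7 (-0.28 to 0.053), SREBF1 (-0.26 to 0.58), SREBF2 (-0.21 to 0.39), SCAP (-0.50 to 0.25), INSIG1 (-0.18 to 0.60), INSIG2 (-0.28 to 0.028), ACACA (-0.014 to 0.59), SCD (-0.14 to 0.031), ELOVL6 (-0.28 to 0.10) and FADS2 (-0.23 to 0.19). Under median centring IDI1 (0.10), DHCR7 (0.11), SCAP (0.089), INSIG2 (0.095), SCD (0.078), ELOVL6 (0.099) and FADS2 (0.20) turned. The median of all genes was then 0.18. With the mean of all probe sets HMGCS1 (-0.48), IDI1 (0.042), DHCR7 (0.24), SREBF2 (-0.095), INSIG1 (-0.054) and FADS2 (0.35) turned, and FADS2 was 0.026 with the deposited scaling. The mean for FADS2 took in a probe set below the filter level, which differed by 0.72. The cause of these turns was not tested.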
